A study of Mus musculus with 6 samples.

Results

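Bulk RNA-seq of the embryonic mouse palate was read for the fibroblast growth factor (FGF) pathway, taken as 36 named genes covering FGF ligands, FGF receptors, the proteins that bind them and the genes by which cells feed back on the signal. The genes were chosen by name and function, with earlier results of these data known. Of the 56691 genes in the files, 35 matched members; Spry3 was not analysed here. The samples were the anterior 1/3 (n = 3) and the posterior 1/3 (n = 3) of palatal shelves microdissected from C57BL/6J embryos at E14.0, with no genotype or treatment named that would part the groups. The labels do not say whether an embryo or a litter gave tissue to more than 1 sample, so p-values measure the spread between these samples. Each library held 11378736 to 15172733 reads counted on genes, and levels are given as CPM, the gene's reads relative to the library's total after that total was adjusted for composition by TMM.

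FGFs are secreted ligands that bind receptor tyrosine kinases (Fgfr1 to Fgfr4) together with heparan sulfate at the cell surface. The bound receptor signals through the adaptor Frs2 to RAS and a kinase cascade inside the cell. The signal raises transcription of ETS factors (Etv1, Etv4, Etv5) and of inhibitors of the cascade itself (Sprouty and Spred proteins, the phosphatase Dusp6 and the membrane protein Il17rd), so these genes are widely used as a readout of FGF signalling. In the palatal shelf, Fgf10 from the mesenchyme acts on the IIIb isoform of Fgfr2 in the overlying epithelium, and loss of either gene in the mouse gives a cleft palate.

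Several ligands, 1 receptor and both FLRT receptor-binding proteins differed along the axis. Of 33 members that reached 10 counts in 3 or more of the libraries, 7 (21.2%) differed between the regions at an adjusted p below 0.05 (edgeR quasi-likelihood test, Benjamini-Hochberg over all genes tested). Among all 15673 genes tested the share was 7.46%. One member, Fgf10, was higher in anterior palate, beside 2.59% of all genes. The other 6 (Fgf2, Fgf5, Fgf18, Fgfr4, Flrt2 and Flrt3) were higher in posterior palate, beside 4.87% of all genes. Fgf5 had 2 anterior counts and entered the test only through the posterior libraries, where it is high, so it had to differ and its call adds nothing to these counts. Fgfr4 had 2, 12 and 9 anterior counts and reached 10 counts in 3 libraries only with its posterior libraries. Its call is therefore not read as support for these counts either. Log2 fold changes here are posterior over anterior throughout. Their median over the 33 members was 0.07 and their median absolute size 0.33, against -0.004 and 0.24 over all genes tested. In bulk tissue, fewer cells of a type and less RNA per cell cannot be told apart.

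**Figure D1:**
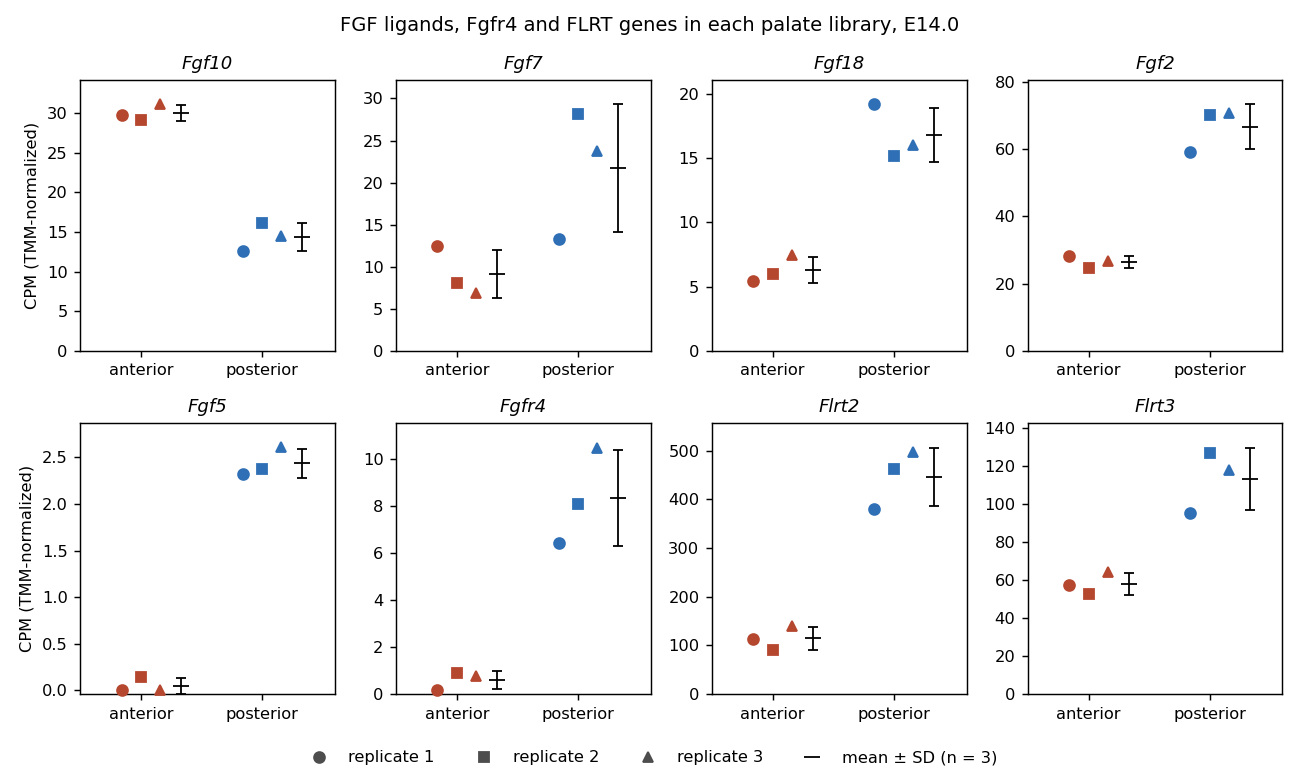
Levels in CPM (y axis, linear) of the 7 members that passed the test and of Fgf7, with each point a library (colour for region, shape for replicate) and the bars the mean ± SD of 3 libraries per region. Fgf10 lay at 29.1 to 31.1 CPM in anterior and 12.6 to 16.1 CPM in posterior palate, and the other 7 genes, by a narrow margin for Fgf7, were higher in all 3 posterior libraries than in any anterior library.

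The posterior libraries were not alike. Replicates 2 and 3 had 5.94% to 6.12% of reads mapping to several places and 0.973% to 1.14% of gene counts on mitochondrial genes, against 8.45% to 8.77% and 2.70% to 2.97% in posterior replicate 1 and the anterior libraries. Without posterior replicate 1, 17 of 32 members tested passed, but so did 46.4% of all genes. The 7 members named above passed in every alternative fit in which they were tested. The summed level of 10 skeletal muscle markers was 10.1 to 13.2 CPM in anterior and 590 to 1045 CPM in posterior palate, all 9 of those tested were higher in posterior palate, and Myf6 was at 0 in anterior palate. The 10 epithelial markers summed to 1826 to 1927 CPM in anterior palate and to 2088, 1429 and 1269 CPM in posterior replicates 1 to 3, with 1 of 10 (Trp63) passing the test and higher in anterior palate. Mesenchymal markers were high in all libraries (7 genes, 13042 to 14200 CPM in anterior and 17286 to 26946 CPM in posterior palate), with 1 (Prrx1) called higher in anterior and 3 (Twist1, Col3a1 and Pdgfra) in posterior palate.

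Among the paracrine ligands, 3 of 6 tested passed, beside 7.46% of all genes, and 1 of the 3 is Fgf5, which entered only through its posterior libraries. Fgf10, the mesenchymal ligand that acts on palatal epithelium, lies on chromosome 13 from 118669791 to 118792115 on the plus strand (GRCm38, GENCODE M21). Its levels were 29.7, 29.1 and 31.1 CPM in the anterior libraries and 12.6, 16.1 and 14.5 CPM in the posterior libraries. No posterior library reached the lowest anterior one, and the spread within a region was small. The fold change was 2.08 in favour of anterior palate (log2 fold change -1.06, SE 0.13, edgeR adjusted p = 0.00297).

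Fgf18, a ligand known from skeletal and lung development, ran the other way. The gene lies on chromosome 11 from 33117430 to 33147400 on the minus strand. Anterior libraries had 5.46, 5.96 and 7.44 CPM and posterior libraries 19.2, 15.2 and 16.0 CPM, with no overlap. The rise toward posterior palate was 2.68-fold (log2 fold change 1.42, SE 0.17, edgeR adjusted p = 0.00344). Bone and cartilage markers are given beside it because Fgf18 is expressed in skeletal tissue. The 7 osteoblast markers summed to 1971 to 3558 CPM in anterior and 295 to 1821 CPM in posterior palate, and the 7 chondrocyte markers to 331 to 423 CPM and 779 to 1497 CPM. Of 6 tested in each list, 1 osteoblast marker passed, higher in anterior palate, and 3 chondrocyte markers passed, higher in posterior palate. Their part in the Fgf18 difference was not tested.

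The 250 bases before the RefSeq start (GRCm38.p6) are shown for these 2 ligands because they moved in opposite directions, 5′ to 3′ on the strand of the gene, with GGAA or its reverse complement TTCC in capitals, the core letters that ETS factors bind. The Fgf10 window is chr13:118714449-118714698 on the plus strand and the Fgf18 window chr11:33147401-33147650 on the minus strand. The Fgf10 window lies inside the GENCODE M21 span of the gene given above, so it is not upstream of that span.
Fgf10: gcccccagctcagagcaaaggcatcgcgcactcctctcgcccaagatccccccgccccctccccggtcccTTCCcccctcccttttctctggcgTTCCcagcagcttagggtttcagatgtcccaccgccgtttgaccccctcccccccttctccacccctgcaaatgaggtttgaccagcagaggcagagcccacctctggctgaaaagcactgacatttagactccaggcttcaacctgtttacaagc
Fgf18: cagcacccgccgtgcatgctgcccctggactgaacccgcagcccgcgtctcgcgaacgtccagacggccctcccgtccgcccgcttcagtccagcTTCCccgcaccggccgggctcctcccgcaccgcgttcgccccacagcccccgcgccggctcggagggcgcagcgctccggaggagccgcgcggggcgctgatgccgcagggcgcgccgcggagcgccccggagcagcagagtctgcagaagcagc
The Fgf10 window holds 2 such matches and the Fgf18 window 1. Of 32851 windows of the same length before RefSeq starts, 93.4% hold at least 1, with a median of 3, so a match in itself sets neither gene apart.

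Fgf5, known for ending the growth phase of hair, was nearly absent in front. The anterior libraries held 0, 2 and 0 counts (0, 0.145 and 0 CPM), and the posterior libraries 2.32, 2.38 and 2.61 CPM. With 2 counts against 102, the ratio of posterior to anterior was 47.0, with an exact 95% interval of 12.7 to 393 that covers counting error only (edgeR adjusted p = 0.00301). Fgf5 passed the filter on low counts through the posterior libraries alone. Its rise went with that of the muscle markers, whose part in it was not tested.

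Fgf7, a mesenchymal ligand close to Fgf10 in sequence and receptor choice, had the reverse order of Fgf10 but did not pass. Levels of 12.4, 8.07 and 6.92 CPM in anterior and 13.3, 28.1 and 23.7 CPM in posterior palate parted the regions by a narrow margin, since posterior replicate 1 lay close to anterior replicate 1. The log2 fold change was 1.25 (SE 0.32, edgeR adjusted p = 0.059). The adjusted p was 0.00273 by DESeq2 and 0.00118 without posterior replicate 1, and with the term for the library group that parts posterior replicates 2 and 3 from the other libraries the log2 fold change was 0.54 and the adjusted p 0.359. Over all alternatives the adjusted p ran from 0.00118 to 0.359.

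Per kilobase of exon, which allows levels of different genes to be compared, the Fgf10 to Fgf7 ratio was 1.69, 2.55 and 3.17 in the anterior libraries and 0.67, 0.405 and 0.432 in the posterior libraries. Fgf10 was thus the more abundant of the pair in every anterior library and Fgf7 in every posterior library. The ratio of Fgf18 to Fgf10 crossed 1 as well, at 0.712, 0.794 and 0.928 in anterior and 5.91, 3.66 and 4.29 in posterior palate. These ratios were among 4 chosen after the levels were seen, and each gave a two-sided exact permutation p of 0.1, the smallest that 3 against 3 libraries allow, so none can pass 0.05.

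The other paracrine ligands did not pass. Fgf9, an epithelial ligand in many organs, had 9.64, 11.7 and 10.7 CPM in anterior and 11.5, 7.15 and 6.93 CPM in posterior palate (log2 fold change -0.33, edgeR adjusted p = 0.386). Its posterior libraries had the order of the epithelial marker sums given above, high in replicate 1 and low in replicates 2 and 3, and the part of epithelium in the value was not tested. Fgf16 was at 0.749 to 1.64 CPM in all libraries. Fgf20 fell below the low-count filter, at 0.509 to 1.14 CPM in anterior and 0.0686 to 0.361 CPM in posterior palate from 33 against 10 counts in all. Without that filter its log2 fold change was -1.81 (edgeR adjusted p = 0.094). Fgf8, which the filter also left out, had at most 2 counts in any library, a level that this depth cannot tell from background.

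**Figure D2:**
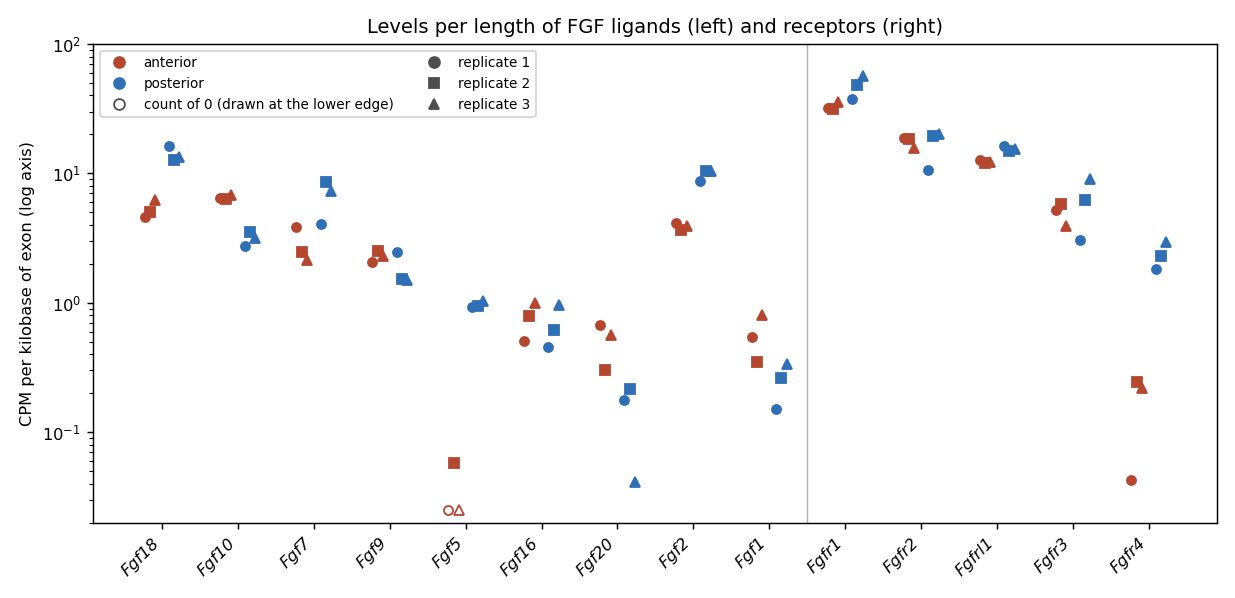
Levels per length (CPM per kb of exon, log axis) of extracellular ligands (left) and receptors (right), with a point for each of the 3 libraries per region and open points at the lower edge for counts of 0. Fgfr1 was the most abundant receptor in both regions, and Fgf10 was above Fgf18 in every anterior library and below it in every posterior library.

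Fgf1 and Fgf2, which lack a signal peptide and leave the cell by an unconventional route, gave 1 call between them, beside 7.46% of all genes. Fgf2, on chromosome 3 from 37348346 to 37410108 on the plus strand, had 28.1, 24.6 and 26.6 CPM in the anterior libraries and 59.0, 70.2 and 70.8 CPM in the posterior libraries. All posterior values were far above the anterior ones. Posterior palate had 2.52-fold more (log2 fold change 1.33, SE 0.11, edgeR adjusted p = 0.000708). On 3.76% of its exon bases Fgf2 overlaps Gm43439 on the same strand. Fgf1 was low, with 2.96, 1.89 and 4.41 CPM in anterior and 0.823, 1.44 and 1.85 CPM in posterior palate. Its anterior values were all higher, by little, and it did not pass (log2 fold change -1.15, SE 0.41, edgeR adjusted p = 0.141).

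Ordered by level per length, the 5 most abundant extracellular ligands among the members ran in anterior palate from Fgf10 (6.51 ± 0.223 CPM per kb, SD, n = 3) and Fgf18 (5.30 ± 0.867) over Fgf2 (3.90 ± 0.259) and Fgf7 (2.81 ± 0.89) to Fgf9 (2.30 ± 0.222). The ranges of Fgf2 and Fgf7 overlapped, although Fgf2 was the higher of the pair within each anterior library. Those of Fgf7 and Fgf9 overlapped too, with Fgf9 the higher in anterior replicates 2 and 3. The order of these neighbours was not tested. Among the same 5 genes posterior palate gave another order, with Fgf18 (14.2 ± 1.78) first, then Fgf2 (9.83 ± 0.98), Fgf7 (6.68 ± 2.34), Fgf10 (3.13 ± 0.381) and Fgf9 (1.83 ± 0.554). There Fgf7 spanned 4.09 to 8.65 CPM per kb, so that its highest library came close to the lowest of Fgf2 (8.70 CPM per kb).

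The 3 FGF homologous factors (Fgf12, Fgf13 and Fgf14), which stay inside the cell and act on sodium channels in neurons, did not pass, and none had an unadjusted p below 0.05 or passed by DESeq2 or limma-voom. Fgf13 was highest, at 19.2 to 30.3 CPM over all 6 libraries. Each of the 3 had its highest posterior level in replicate 2 (12.8 CPM for Fgf12, 30.0 CPM for Fgf13 and 2.02 CPM for Fgf14). The 10 neuronal markers also peaked there, summing to 447 CPM against 122 and 95.6 CPM in posterior replicates 1 and 3 and 76.2 to 77.7 CPM in anterior palate. Across the anterior replicates, where the sums hardly moved, Fgf12 fell from 10.9 to 5.71 CPM. Fgf13 had its highest level of all, 30.3 CPM, in anterior replicate 3, the library with the lowest sum. The part of neurons in these values was not tested.

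Fgfbp1 and Fgfbp3, secreted carriers that release FGFs from heparan sulfate, did not pass and likewise had no unadjusted p below 0.05 and no call by DESeq2 or limma-voom. Fgfbp1 had 12.9, 12.1 and 9.43 CPM in anterior and 15.3, 8.16 and 7.27 CPM in posterior palate. Its posterior libraries followed the order of the epithelial marker sums, as those of Fgf9 did. In anterior replicates 1 to 3 these sums were 1905, 1826 and 1927 CPM, where Fgfbp1 was lowest in the library with the highest sum and Fgf9 highest in the library with the lowest. Fgfbp3 was at 2.17 to 4.05 CPM in all libraries.

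Of the 5 receptor genes, Fgfr4 alone passed, beside 7.46% of all genes. As said above, Fgfr4 reached 10 counts in 3 libraries only with its posterior libraries. No share of receptor genes is therefore read against that background. Fgfr4, known in muscle progenitors and liver, lies on chromosome 13 from 55152640 to 55168759 on the plus strand. The anterior libraries had 0.152, 0.872 and 0.779 CPM (23 counts in all) and the posterior libraries 6.44, 8.09 and 10.5 CPM (351 counts). Even the lowest posterior library was several times above the highest anterior one. The fitted fold change was 13.7 (log2 fold change 3.78, SE 0.46, edgeR adjusted p = 0.00352). The muscle markers rose in the same libraries. A list of 5 muscle progenitor markers, which shares Myf5 with them, summed to 29.6 to 34.5 CPM in anterior and 18.6 to 20.8 CPM in posterior palate, with Pax3 higher in anterior and Pax7, Myf5 and Msc higher in posterior palate among 4 tested and Tcf21 at 0 in anterior palate. The part of muscle cells in the Fgfr4 value was not tested. Per length Fgfr4 stayed the least abundant receptor, at 0.170 ± 0.111 CPM per kb in anterior and 2.36 ± 0.576 CPM per kb in posterior palate (SD, n = 3).

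Fgfr1, the main receptor of mesenchyme, had 315, 313 and 352 CPM in anterior and 372, 477 and 562 CPM in posterior palate. All posterior libraries were higher, replicate 1 by the least. The log2 fold change of 0.53 (SE 0.16) did not pass, with an edgeR adjusted p of 0.0934. By DESeq2 its adjusted p was 0.022, without posterior replicate 1 it was 0.000649, and with the library-group term it was 0.407. Per length Fgfr1 led in every library, at 33.1 ± 2.22 CPM per kb in anterior and 47.6 ± 9.64 CPM per kb in posterior palate (SD, n = 3).

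Fgfr2, whose epithelial IIIb and mesenchymal IIIc isoforms are merged in the gene counts, had 193, 190 and 163 CPM in anterior and 109, 201 and 209 CPM in posterior palate. Posterior replicate 1 was the lowest library and replicates 2 and 3 the highest. The log2 fold change was -0.07 (SE 0.23, edgeR adjusted p = 0.858). With the library-group term it was -0.74 and passed (adjusted p = 0.00506), a value that rests on posterior replicate 1 as the lone posterior library of its group. Over all alternatives the adjusted p ran from 0.00506 to 0.957. Fgfr2 shares 3.04% of its exon bases with Ctbp2 on the same strand.

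Fgfr3, a receptor of cartilage and epithelium, had 37.2, 41.7 and 27.9 CPM in anterior and 21.9, 44.9 and 64.4 CPM in posterior palate, and the regions overlapped. The chondrocyte markers summed to 779, 1368 and 1497 CPM in posterior replicates 1 to 3, the order of Fgfr3 there, but to 423, 331 and 354 CPM in anterior replicates 1 to 3, where the library with the most Fgfr3 had the least. Their part was not tested. Fgfrl1, a receptor without a kinase domain, was tight within each region, at 33.7 to 35.1 CPM in anterior and 41.6 to 45.6 CPM in posterior palate. The regions did not overlap but the change was small and did not pass (log2 fold change 0.33, SE 0.09, edgeR adjusted p = 0.0732). It passed with the library-group term (adjusted p = 0.0273), with the length correction (0.0166) and without posterior replicate 1 (0.0115), in a range of 0.0115 to 0.29 over all alternatives. The Fgfr1 to Fgfr2 ratio per length was 1.71, 1.72 and 2.25 in anterior and 3.56, 2.48 and 2.82 in posterior palate.

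Flrt2 and Flrt3 are fibronectin-leucine-rich transmembrane proteins that bind FGF receptors as well as guidance receptors of the Unc5 and latrophilin families. Both were higher in posterior palate, beside 4.87% of all genes. Flrt2, on chromosome 12 from 95692226 to 95785215 on the plus strand, had 113, 91.3 and 139 CPM in the anterior libraries and 381, 463 and 497 CPM in the posterior libraries. The regions were well apart, at 3.91-fold (log2 fold change 1.97, SE 0.18, edgeR adjusted p = 0.000933). Flrt3, on chromosome 2 from 140650914 to 140671469 on the minus strand, had 57.3, 52.7 and 64.0 CPM and 95.1, 127 and 118 CPM. It rose less, by 1.96-fold (log2 fold change 0.97, SE 0.14, edgeR adjusted p = 0.00561). The Flrt2 to Flrt3 ratio per length was 1.09 to 1.36 in anterior and 2.30 to 2.65 in posterior palate (two-sided exact permutation p = 0.1, the smallest possible).

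**Figure D3:**
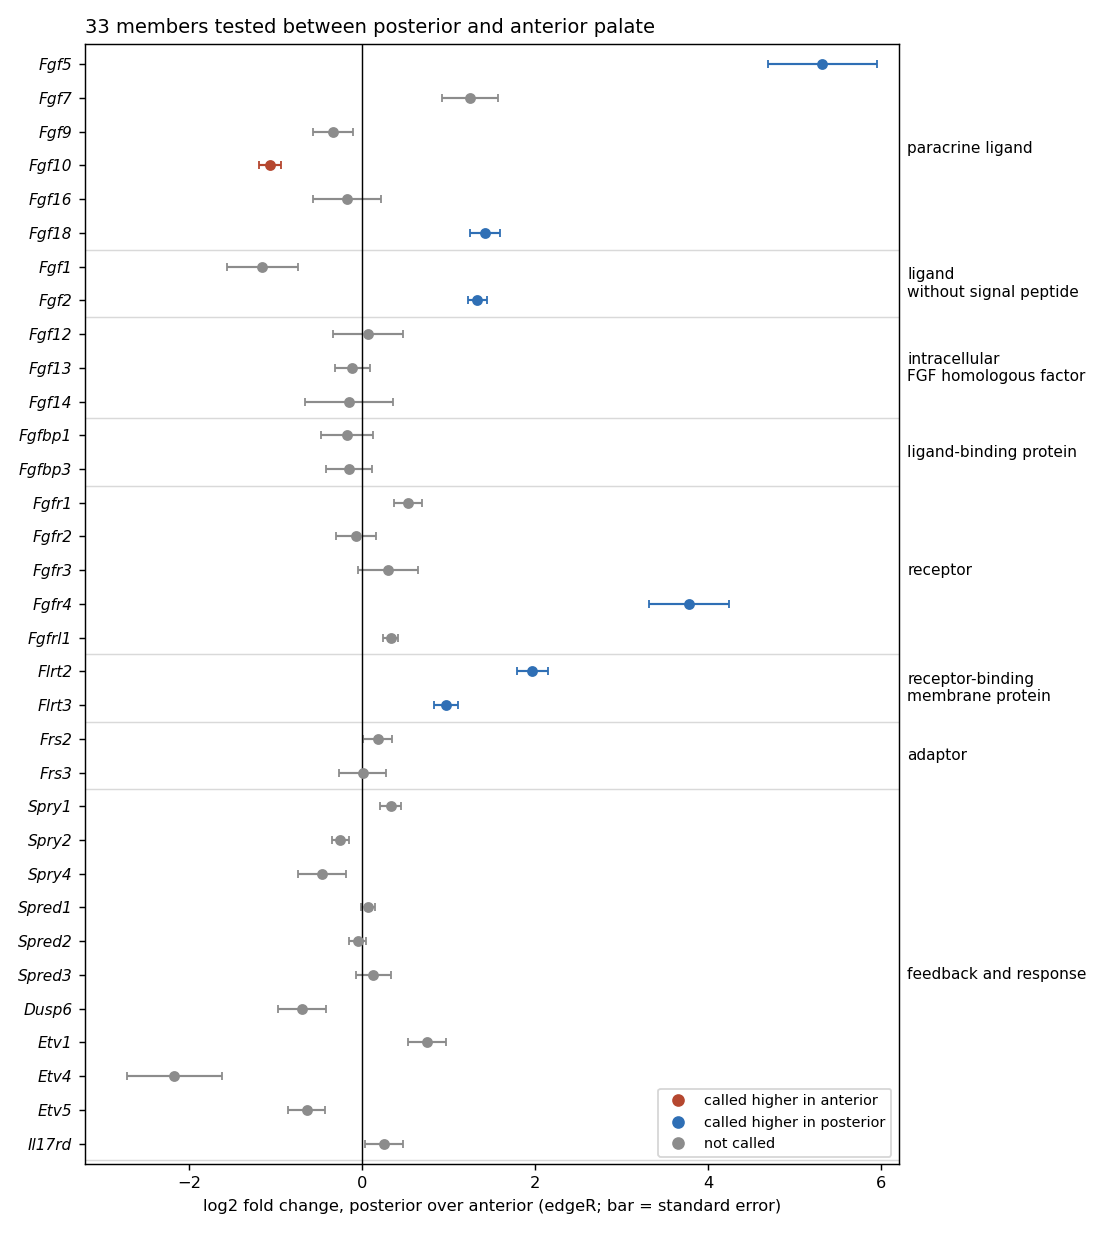
Log2 fold change, posterior over anterior, of the 33 members tested (x axis) with bars of 1 SE, grouped by role. Coloured points passed the edgeR test at an adjusted p below 0.05 and grey points did not, and the feedback and response genes are all grey; the point of Fgf5, with 2 anterior counts, is a fitted value that depends on the prior count.

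The adaptors Frs2 and Frs3, which link the activated receptor to Grb2, had log2 fold changes of 0.18 and 0.01 and did not pass, nor did either have an unadjusted p below 0.05 or a call by DESeq2 or limma-voom. Levels were 61.5 to 97.1 CPM for Frs2 and 2.88 to 5.49 CPM for Frs3, with overlapping regions.

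None of the 11 feedback and response genes measured passed in the main edgeR fit, a count near the background of 7.46%. At an unadjusted p below 0.05 there were 6, beside 3946 of all 15673 genes. DESeq2 called 3 (Etv1, Etv4 and Etv5), beside 12.6% of all genes, and limma-voom called 0. Without the low-count filter edgeR called the same 3 (adjusted p = 0.0272, 0.0013 and 0.0336), beside 7.14% of all genes. By the fitted sign, 6 were higher in anterior and 5 in posterior palate, with a median log2 fold change of -0.05. The largest differences toward anterior palate sat in genes whose anterior libraries disagreed.

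Etv4, an ETS factor induced by FGF, had 12.5, 15.8 and 51.5 CPM in the anterior libraries and 5.31, 7.80 and 4.59 CPM in the posterior libraries. Every anterior library was above every posterior one, and anterior replicate 3 was far above the other two. The log2 fold change of -2.17 (SE 0.55) gave an edgeR adjusted p of 0.059, and without anterior replicate 3 it was -1.26 with an adjusted p of 0.0592. DESeq2 gave an adjusted p of 0.000204, and over all alternatives it ran from 0.000204 to 0.193. The gene lies on chromosome 11 from 101769742 to 101785371 on the minus strand.

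Etv5, its close relative, had 33.9, 35.2 and 55.5 CPM in anterior and 24.1, 30.8 and 25.0 CPM in posterior palate. The order of the anterior libraries was like that of Etv4, with a smaller range, while that of the posterior libraries differed (log2 fold change -0.64, SE 0.21, edgeR adjusted p = 0.117). Without anterior replicate 3 it was -0.38 (adjusted p = 0.252), in a range of adjusted p from 0.0336 to 0.31 over all alternatives. Etv1, the third of the group, had the opposite sign at 9.86, 8.94 and 15.5 CPM in anterior and 16.5, 20.3 and 20.7 CPM in posterior palate. Here anterior replicate 3 lay close to posterior replicate 1 and narrowed the gap (log2 fold change 0.75, SE 0.22, edgeR adjusted p = 0.0924). Without that anterior library, Etv1 passed at a log2 fold change of 1.02 (adjusted p = 0.0291, in a range of 0.0138 to 0.333 over all alternatives).

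Dusp6, a phosphatase that dampens the signal inside the cell, had 77.2, 86.7 and 170 CPM in anterior and 66.8, 75.6 and 64.3 CPM in posterior palate. The regions were parted only narrowly apart from anterior replicate 3. Its log2 fold change was -0.69 (SE 0.28, edgeR adjusted p = 0.184) and fell in size to -0.25 (adjusted p = 0.338) without that library. Spry4 behaved alike, at 22.5, 26.2 and 48.9 CPM in anterior and 22.1 to 25.2 CPM in posterior palate, with a log2 fold change of -0.46 with and -0.05 without anterior replicate 3. Neither passed in any alternative, the adjusted p running from 0.059 to 0.423 for Dusp6 and from 0.208 to 0.853 for Spry4.

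**Figure D4:**
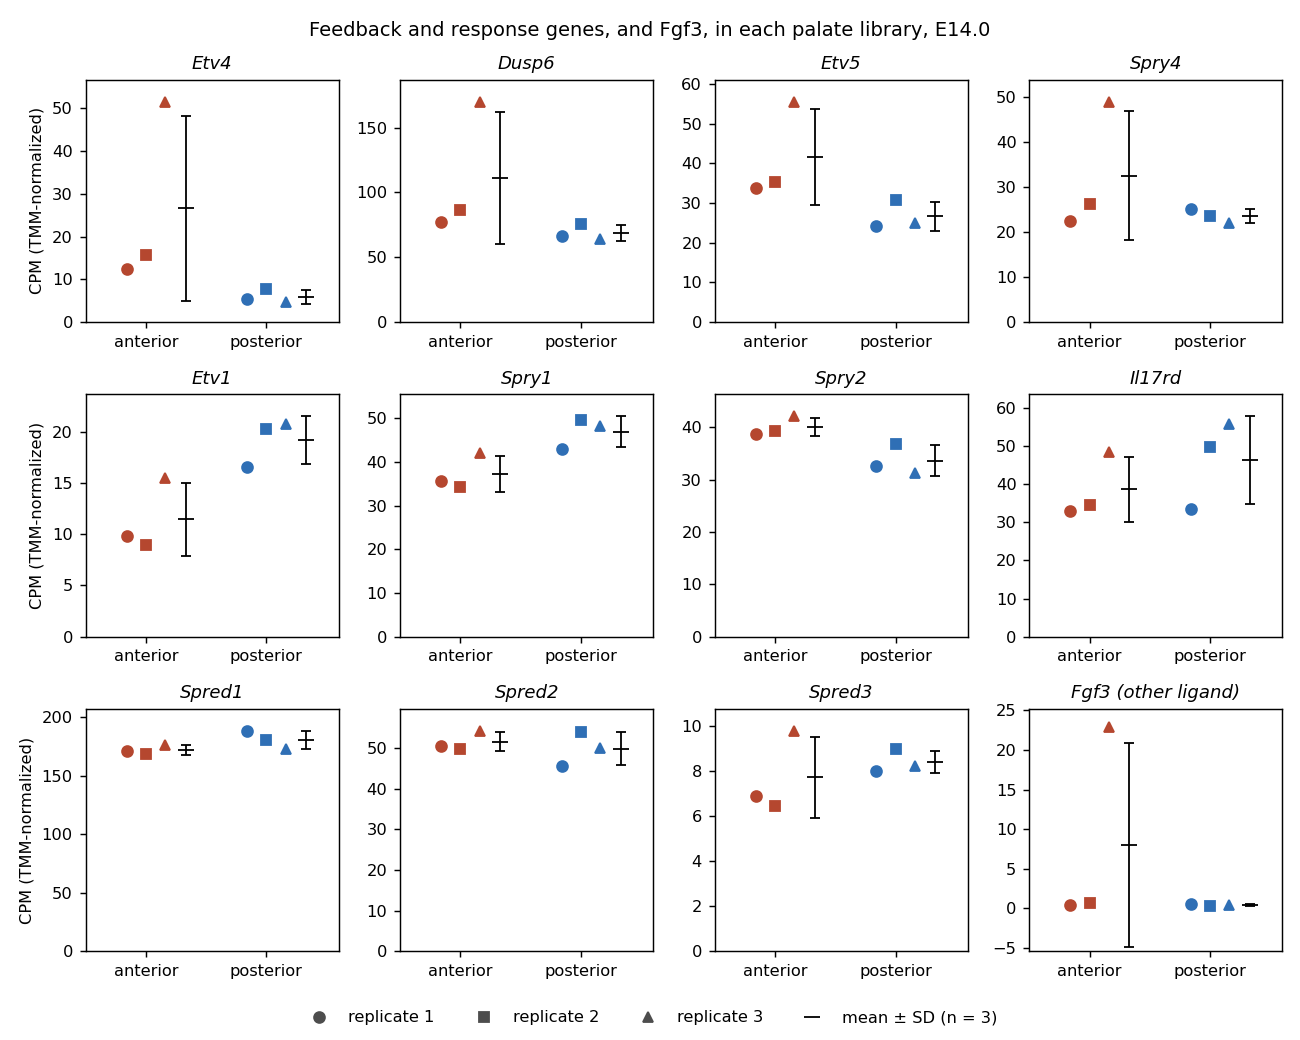
Levels in CPM (y axis, linear) of the 11 response genes measured and of the ligand Fgf3, with each point a library and the bars the mean ± SD of 3 libraries per region. Anterior replicate 3 (red triangle) was the highest library for Etv4 (51.5 CPM), Dusp6 (170 CPM), Spry4 (48.9 CPM), Etv5 (55.5 CPM) and Fgf3 (22.9 CPM).

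The remaining response genes varied less. Spry1 had 34.2 to 42.0 CPM in anterior and 42.9 to 49.6 CPM in posterior palate, and Spry2 38.8 to 42.1 CPM and 31.3 to 36.9 CPM. These 2 Sprouty inhibitors differed in sign, with no overlap between the regions, at log2 fold changes of 0.33 and -0.25, and neither passed (edgeR adjusted p = 0.135 and 0.186). Spred1, Spred2 and Spred3, which hold back RAF activation, had log2 fold changes of 0.07, -0.05 and 0.13. Il17rd, also called Sef, had 32.9, 34.6 and 48.4 CPM in anterior and 33.4, 49.6 and 55.7 CPM in posterior palate. For these 4 the regions overlapped.

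Anterior replicate 3 stood above the mean of the other anterior libraries in several of these genes together. The excess, on log2(CPM + 0.5), was 1.84 for Etv4, 1.05 for Dusp6, 0.99 for Spry4, 0.69 for Etv1, 0.68 for Etv5, 0.52 for Spred3 and 0.51 for Il17rd. These 7 of 11 response genes exceeded 0.5, as did 616 of 15673 genes (3.93%). Fgf3, a ligand of tooth and inner ear that is no member of the set and was read after this was seen, had 5, 9 and 265 counts in the anterior libraries and 7, 4 and 6 counts in the posterior ones. Fgf4, a ligand of the tooth enamel knot, had 0, 0 and 29 counts in anterior and 3, 7 and 16 in posterior palate. The 6 tooth markers summed to 118, 162 and 225 CPM in anterior and 122, 95.5 and 117 CPM in posterior palate, with Amelx at 0 in every library and 2 of the 3 markers tested higher in anterior palate. Whether tooth tissue has a part in the levels of this library was not tested.

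The windows before the start of Dusp6 and Etv5 are shown as examples, in the same format as above. In both of these response genes anterior replicate 3 was the highest library and every anterior library was above every posterior one. Etv4 and Spry2 had this pattern too and are not shown. The Spry2 window holds 3 matches of GGAA on either strand. The Dusp6 window is chr10:99262981-99263230 on the plus strand. The Etv5 window is chr16:22439571-22439820 on the minus strand, the one of its 2 RefSeq windows that adjoins a transcript of GENCODE M21. Part of it lies inside the M21 span of Etv5, which reaches to 22439719.
Dusp6: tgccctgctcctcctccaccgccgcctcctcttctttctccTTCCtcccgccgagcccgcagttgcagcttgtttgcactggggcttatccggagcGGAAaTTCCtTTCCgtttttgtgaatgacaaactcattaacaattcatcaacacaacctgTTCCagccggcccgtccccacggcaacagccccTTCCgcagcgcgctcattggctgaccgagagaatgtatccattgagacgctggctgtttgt
Etv5: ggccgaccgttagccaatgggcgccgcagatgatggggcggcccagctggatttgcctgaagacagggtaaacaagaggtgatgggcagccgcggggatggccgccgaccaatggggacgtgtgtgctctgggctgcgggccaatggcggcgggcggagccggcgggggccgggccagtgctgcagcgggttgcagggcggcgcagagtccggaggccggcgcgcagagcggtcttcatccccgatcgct
The first holds 6 matches of GGAA on either strand and the second 0, while the other Etv5 window, chr16:22438369-22438618, holds 4. A longer ETS consensus, CCGGAAGT on either strand, which itself contains GGAA, was found in 2.88% of all windows and, among 28 members with a window, in those of Fgfrl1 and Frs2. No match says only that the letters are not in this window.

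Beyond the members, 57 of 65 other genes of the pathway could be tested, and 8 (14.0%, beside 7.46% of all genes) passed, 1 higher in anterior (beside 2.59%) and 7 in posterior palate (beside 4.87%). Of the 7, Fgf6 and Kl entered the test through their posterior libraries alone and add nothing to the count. The heparan sulfate group held 4 of these among 21 tested (19.0%, beside 7.46%). Sulf1 and Sulf2, extracellular enzymes that remove 6-O-sulfates from heparan sulfate and thereby lower FGF signalling, rose together. Sulf1 had 170 to 178 CPM in anterior and 260 to 443 CPM in posterior palate (log2 fold change 1.07, SE 0.19, edgeR adjusted p = 0.0148). Sulf2 had 366 to 469 CPM and 597 to 1032 CPM (log2 fold change 1.02, SE 0.21, adjusted p = 0.0264). Both were lowest in replicate 1 among the posterior libraries.

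Hs3st3a1, a sulfotransferase of the same chains, rose from 1.24 to 4.07 CPM in anterior to 12.2 to 14.0 CPM in posterior palate (log2 fold change 2.42, SE 0.37, edgeR adjusted p = 0.00757). Sdc4, a heparan sulfate carrier at the cell surface, was the one gene higher in anterior palate, at 96.6 to 118 CPM against 63.7 to 80.4 CPM (log2 fold change -0.56, SE 0.13, adjusted p = 0.0413). Among 14 other response genes tested, of which 14.3% passed beside 7.46% of all genes, Ccnd1, the G1 cyclin D1, and Lrig3, a membrane protein of the family that restrains receptor kinases, passed. Ccnd1 had a log2 fold change of 0.69 (SE 0.14, adjusted p = 0.0264) and Lrig3 of 1.07 (SE 0.23, adjusted p = 0.0332), so the response genes called here were higher in posterior palate.

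Of the other ligands and Klotho co-receptors, 4 could be tested and 2 passed, each through its posterior libraries alone, so that no share is read against the background of 7.46%. Fgf6, a ligand of skeletal muscle, had 0, 2 and 0 counts in anterior and 14, 17 and 36 counts in posterior palate, a ratio of 30.9 with an exact 95% counting interval of 8.22 to 260 (edgeR adjusted p = 0.0144). Its posterior order, highest in replicate 3, was that of the muscle markers only in part, since these were lowest in replicate 2. Kl, the co-receptor alpha-Klotho, had 3, 1 and 3 counts against 11, 14 and 10 (edgeR adjusted p = 0.0393). The calls in this wider list varied with the libraries, and the number of calls in it was 0 without anterior replicate 1 (3.38% of all genes called) and 30 without posterior replicate 1 (46.4%). It was 2 without anterior replicate 2 or 3 (3.23% and 4.09%), 1 without posterior replicate 2 (3.25%) and 3 without posterior replicate 3 (4.15%).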

How the data were processed

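RNA was read from anterior (n = 3) and posterior (n = 3) palatal shelves at E14.0. The authors deposited a table of whole-number read counts by gene for every library, in the layout of a STAR gene count table, with unstranded and strand-specific columns. The labels name the mm10 genome, HISAT2, StringTie and DESeq2; the aligner behind the counts and the annotation release are not given in the sources used here. The reverse-stranded counts, which held 19.0 to 23.1 times the forward ones, were used, and rows for unassigned reads were left out. The 15673 genes that reached 10 counts in 3 or more libraries entered the quasi-likelihood test of edgeR 4.0.16 in R 4.3.3 with TMM scaling, region as the term and Benjamini-Hochberg adjustment at 0.05, after the code was tested on simulated data.

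Symbols, positions and exon lengths came from GENCODE M21 (GRCm38), matched by gene ID without the version (52073 of 56691 IDs). Exon lengths merge all isoforms. The members and gene lists were chosen with earlier results of these data known. Values per library were given for members that passed and for those of at least 10 CPM in either region with a log2 fold change of at least 0.5 in size; other members are also given where a marker list or a single library moves with them. Of other pathway genes those that passed were named, and 1 group of that list is not reported here. For the 2 genes tested with 1 to 3 counts in a region (Fgf5 and Fgf6), ratios with exact 95% intervals were given. Alternatives were DESeq2 1.42.0, limma-voom (limma 3.58.1), other scalings, filters and strand columns, a replicate block, a library-group term, a length correction and the omission of each library. Depth was 11378736 to 15172733 counts per library, so 3 counts correspond to 0.198 to 0.264 CPM before TMM scaling.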

Additional observations from a re-analysis of the deposited data

How the results depend on the processing

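The 7 members called (7.46% of all genes) became 12 by DESeq2 (12.6%), 12 when genes of any count were tested (7.14%), 5 of 30 with 10 counts required in every library (6.01%), and 6 to 17 when a library was left out (3.23% to 46.4%). The 1 called higher in anterior palate became 3 in each of these 2 fits, 2 with the library-group term and 1 to 4 without a library, and the 6 higher in posterior palate became 4 with the filter on every library and 5 to 13 without a library. The 8 other pathway genes became 0 to 30. Posterior replicate 1 gave each upper end. With the replicate block, 7 members were called (1 higher in anterior and 6 in posterior palate), the same 7, and 829 genes in all instead of 1169. Deviations of same-numbered samples correlated at -0.0527, 0.045 and 0.0355, so the numbers were not taken as pairs. Fgf5 was tested in 12 and Fgfr4 in 15 of the 16 alternative fits.

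The members whose sign turned were not called in the original fit. The library-group term gave log2 fold changes of 0.11 for Fgf9, -0.97 for Fgf12, -0.70 for Fgfr3, -0.21 for Il17rd, -0.25 for Frs2, -0.08 for Frs3 and 0.41 for Fgfbp1. The length correction gave -0.05 for Fgf12, -0.04 for Spred1, -0.02 for Il17rd and -0.02 for Frs2. Limma-voom gave -0.03 for Fgf12 and -0.05 for Frs3. Frs3 was at -0.03 with library size only and -0.03 with the replicate block, and Fgf14 at 0.42 on unstranded counts. Without a library, values ran from -0.5 to 0.06 for Fgf16, -0.38 to 0.4 for Fgf12, -0.32 to 0.04 for Fgf13, -0.96 to 0.18 for Fgf14, -0.23 to 0.18 for Fgfr2, -0.08 to 0.62 for Fgfr3, -0.11 to 0.02 for Spred2, -0.27 to 0.21 for Frs3, -0.57 to 0.03 for Fgfbp1 and -0.4 to 0.05 for Fgfbp3. The cause of these turns was not tested. Fgf8 and Fgf20, which the low-count filter left out, had adjusted p-values of 0.694 and 0.094 in edgeR without the filter.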
